A study of Mus musculus with 7 samples.

Results

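The 10 genes described here, Krt7, Krt8, Krt18, Krt19, Sox9, Spp1, Cftr, Muc1, Epcam and Cd24a, are used as markers of pancreatic duct cells or of simple epithelia. They were chosen by symbol, as 10 of the 55536 genes in the count table. The rule used no level or change of a gene, but earlier results of these data were known when the genes were chosen. RNA was sequenced from mouse alpha cells, the glucagon-producing cells of the pancreatic islet, which were sorted by red tdTomato fluorescence. The 4 control libraries had the genotype Nkx2.2+/+;Gcg-iCre;Rosa26:tdTomato and the 3 knockout (KO) libraries Nkx2.2fl/fl;Gcg-iCre;Rosa26:tdTomato. Both groups therefore carried the Cre recombinase driven by the glucagon gene and the reporter, and differed by the floxed alleles of Nkx2-2, a homeodomain transcription factor of islet cells. The mice were of the strain that the series' design text spells C57B1/6J, and their age is not given in the sources used here. The labels do not say whether a library came from 1 animal or from pooled animals, so p-values measure the spread between these libraries. The comparison asks how loss of Nkx2-2 in alpha cells changes gene expression.

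Keratins are the intermediate filament proteins of epithelial cells. Each filament pairs a type II keratin, such as Krt7 or Krt8, with a type I keratin, such as Krt18 or Krt19, and Krt8 with Krt18 is the pair of the earliest simple epithelia. Pancreatic duct cells are known for Krt7, Krt19, the transcription factor Sox9, the secreted phosphoprotein osteopontin (Spp1) and the chloride channel Cftr, while Krt8, Krt18 and the adhesion protein Epcam are also present in islet cells. Islet cells and duct cells arise in the embryo from a common Sox9-positive epithelium.

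The sequence upstream of the annotated start is shown for the members that the results turn on: Krt8 and Krt18, the keratin pair with the highest levels, and Epcam and Spp1, the members that passed the test. Sequences are from RefSeq on GRCm38.p6, where 7 of the 10 genes were matched (not Krt19, Sox9 and Cd24a). Each sequence starts 250 bases upstream of the RefSeq start on the gene's strand and stops at that start or at the first base of any GENCODE M21 exon. Capitals mark AAGTG, the core bound by homeodomain proteins of the NK2 class to which Nkx2-2 belongs, and CACCC, the core bound by Kruppel-like factors such as Klf4, each on either strand. The intervals are chr15:102004483-102004592 on the minus strand for Krt8, chr15:102027966-102028179 on the plus strand for Krt18, chr17:87635729-87635978 on the plus strand for Epcam and chr5:104434861-104435110 on the plus strand for Spp1.
Krt8: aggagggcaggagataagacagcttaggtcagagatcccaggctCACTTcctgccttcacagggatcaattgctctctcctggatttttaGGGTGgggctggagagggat
Krt18: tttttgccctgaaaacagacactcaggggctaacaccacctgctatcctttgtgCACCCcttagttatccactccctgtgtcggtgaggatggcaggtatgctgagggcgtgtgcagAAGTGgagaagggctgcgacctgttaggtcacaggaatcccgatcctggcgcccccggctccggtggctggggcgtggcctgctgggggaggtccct
Epcam: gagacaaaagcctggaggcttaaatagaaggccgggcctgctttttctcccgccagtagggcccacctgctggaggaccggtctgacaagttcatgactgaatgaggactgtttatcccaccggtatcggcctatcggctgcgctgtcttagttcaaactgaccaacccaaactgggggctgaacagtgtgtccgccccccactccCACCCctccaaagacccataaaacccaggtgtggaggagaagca
Spp1: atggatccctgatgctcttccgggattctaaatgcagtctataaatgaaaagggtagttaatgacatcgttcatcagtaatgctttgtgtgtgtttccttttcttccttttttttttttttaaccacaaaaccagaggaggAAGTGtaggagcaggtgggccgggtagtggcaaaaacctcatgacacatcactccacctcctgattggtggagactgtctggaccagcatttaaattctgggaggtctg
In the full 250 bases, AAGTG was found upstream of 5 of the 7 members (Krt7, Krt8, Krt18, Spp1 and Muc1) and in 40.7% of 32851 windows of the same length. CACCC was found upstream of 5 of the 7 (Krt7, Krt8, Krt18, Cftr and Epcam) and in 52% of all windows. No match of one overlapped a match of the other upstream of these genes. The RefSeq start of Krt7 lies 1360 bases inside the GENCODE gene, so its matches are not upstream of the GENCODE start. The RefSeq start of Krt8 lies 140 bases from its GENCODE start. Krt18 held AAGTG from position -133 to -129, and Spp1 held it from -109 to -105, counted back from the RefSeq start. These matches describe the letters and were not tested for binding.

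Libraries held between 45483504 and 72456557 counts. Control 4 was the deepest and was the lowest control for 6 of the 10 genes. Without it DESeq2 called 2 of the 10 higher and 0 lower, against 2.62% and 2.23% of 18390 genes tested. The KO column whose number has no matching sample title is called the unnumbered KO library. Values of a gene are listed for controls 1 to 4, then, as its KO values, for KO 1, KO 2 and the unnumbered library. Nkx2-2, the targeted gene, stood at 8596, 11199, 12297 and 9782 normalized counts (counts divided by the library's size factor) in controls, with KO values of 7758, 7534 and 7694. All KO values were below all controls, at a log2 fold change of -0.45 (SE 0.13, DESeq2 adjusted p 0.0244, edgeR 0.152). DESeq2 called it in 2 of the 7 fits that drop 1 library each. Which part of the gene is deleted is not given in the sources used here, so these counts may include exons that remain. Opposite-strand exons cover 9.67% of the exon length of Nkx2-2. Gcg, the glucagon gene that defines alpha cells, had from 6164740 to 8050550 normalized counts in controls and from 2837930 to 4098500 in KO libraries. Gcg was thus abundant in all libraries of both groups, and DESeq2 called 7 of 10 alpha cell markers lower in KO, edgeR 3. Of all genes tested DESeq2 called 1.94% lower and edgeR 0.647%. Gcg itself had an adjusted p of 7.58e-10 in DESeq2 and 0.175 in edgeR.

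Epcam and Spp1 were higher in KO alpha cells by about 1.60-fold and 1.57-fold, and the other 8 genes did not pass the test. All 10 genes received an adjusted p-value in DESeq2, and 2 of the 10 were called higher at an adjusted p under 0.05, against 1.96% of 19719 genes tested. None was called lower, against 1.94%, and 3.90% of genes were called in either direction. All 10 log2 fold changes were above 0, against 51.2% of the genes tested, and their median was 0.59, against 0.01. Among the cell marker lists used below, medians ran from -0.72 for alpha cells to 0.70 for endothelial cells, with delta cells at 0.64. In 6 of the 10 (Krt8, Krt18, Sox9, Spp1, Cftr and Cd24a) every KO library lay above every control, against 5.76% of the genes tested, and in none did every KO library lie below, against 5.60%. The quasi-likelihood test of edgeR called 0 of the 10, against 1.05% of 19310 genes in either direction, 0.404% higher and 0.647% lower. It gave 7 of them an unadjusted p under 0.05, as DESeq2 did. An unadjusted edgeR p under 0.05 with a higher KO level was found for 5.35% of all genes, and in DESeq2 for 5.75%.

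**Figure D1:**
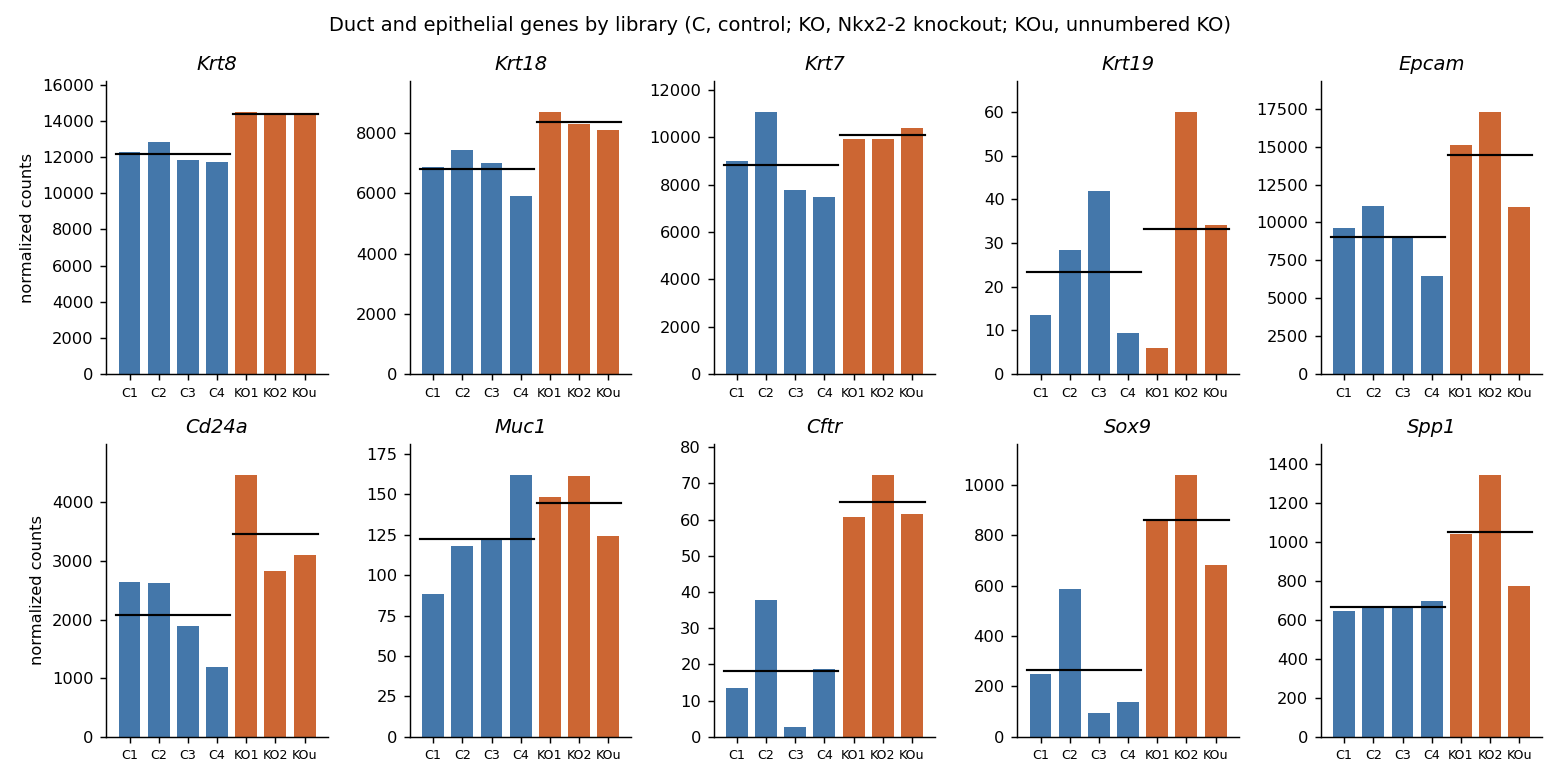
Normalized counts of each gene (vertical axis, from 0) in the 4 control libraries (blue, C1 to C4) and the 3 KO libraries (orange, KO1, KO2 and the unnumbered library KOu), with black lines at the group means. The 3 KO bars of Krt8 stand between 14306 and 14464, all above the 4 controls, while the bars of Krt19 and Muc1 overlap between the groups.

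Positions below are on mm10, from GENCODE M21. Krt8 (ENSMUSG00000049382, chromosome 15, 101996698 to 102004482, minus strand), the type II keratin of simple epithelia, held 12292, 12803, 11844 and 11714 normalized counts in controls. KO values were 14464, 14376 and 14306. The groups did not overlap, and the coefficient of variation was 0.552% in KO libraries and 4.05% in controls. Krt8 differed by a log2 fold change of 0.24 (SE 0.08), with a DESeq2 adjusted p of 0.0532, just short of the threshold. It passed at 0.0204 when genes needed at least 10 counts in 3 libraries, and at 0.0489 when the independent filter was tuned to 0.05 in place of its default of 0.1, the latter setting being added once results had been seen. It did not pass without independent filtering (0.0914), in edgeR (0.297) or in any of the 7 fits that leave out 1 library (0.0862 to 0.438). Opposite-strand exons cover 5.16% of the exon length of Krt8. The pseudogene Krt8-ps is 98.6% identical over 941 bases, so reads can be shared, and it held 0.507% as many counts as Krt8.

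Krt18 (ENSMUSG00000023043, chromosome 15, 102028180 to 102032027, plus strand), the type I partner of Krt8 and its neighbour on the chromosome, held 6870, 7434, 7002 and 5904 normalized counts in controls. KO values were 8693, 8292 and 8105. Again every KO library was above every control. At a log2 fold change of 0.30 (SE 0.11, DESeq2 adjusted p 0.11) Krt18 did not pass.

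The balance of the partners was examined as the ratio of Krt8 to Krt18, both as normalized counts per kilobase of exon. Controls had ratios of 1.31, 1.26, 1.24 and 1.46, and KO values were 1.22, 1.27 and 1.30. The means of 1.32 ± 0.0965 (SD, n = 4) and 1.26 ± 0.0380 (SD, n = 3) differed by -0.06, less than the spread of the controls (exact permutation test, two-sided p = 0.457, adjusted p = 0.61 over 4 ratios). The ratio of type II (Krt7 and Krt8) to type I (Krt18 and Krt19) keratins per kilobase was 1.58 ± 0.103 in controls and 1.50 ± 0.0493 in KO libraries (exact permutation test, two-sided p = 0.286, adjusted p = 0.61). The ratio of Krt7 to Krt8 was 0.201 ± 0.0283 and 0.195 ± 0.00606 (p = 0.914 by the same exact test, adjusted p = 0.914). Ratios with Krt7 divide its counts by 7049 bases, the union of its annotated exons, and their level depends on that length. The ratio of Krt8 and Krt18 together to vimentin (Vim), the intermediate filament of mesenchymal cells, was 102 ± 29.2 and 126 ± 31.0 (p = 0.4 by the same exact test, adjusted p = 0.61). With 4 against 3 libraries this two-sided test cannot give a p below 0.0571.

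Krt7 (ENSMUSG00000023039, chromosome 15, 101411043 to 101430313, plus strand), a type II keratin of duct epithelia, held 9005, 11059, 7792 and 7488 normalized counts in controls, with KO values of 9931, 9941 and 10394. Control 2 was above all KO libraries and the other 3 controls were below them. Its log2 difference was 0.19 (SE 0.15, DESeq2 adjusted p 0.806), with a 95% interval from -0.09 to 0.48. A p that misses the threshold does not show that the groups are alike.

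Krt19 (ENSMUSG00000020911, chromosome 11, 100140810 to 100148665, minus strand), the type I keratin most used to identify duct cells, held 12, 24, 32 and 13 raw counts in controls. KO values were 6, 58 and 46. The groups overlapped and KO 1 was the lowest of all 7 libraries after scaling. The estimate on the log2 scale was 0.52 (SE 0.87), and its 95% interval from -1.18 to 2.23 spans both directions. Without KO 2 it was -0.21.

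Epcam (ENSMUSG00000045394, chromosome 17, 87635979 to 87651129, plus strand), the adhesion protein of epithelial cell surfaces, held 9628, 11072, 9044 and 6477 normalized counts in controls. KO values were 15109, 17254 and 11019. The unnumbered KO library lay just under control 2, so the groups overlapped by these 2 libraries. Means were 9055 ± 1918 (SD, n = 4) and 14461 ± 3168 (SD, n = 3). Epcam rose by 0.68 on the log2 scale (SE 0.20, DESeq2 adjusted p 0.0187). The call was lost without control 3 (adjusted p 0.0756), without KO 1 (0.173) and without KO 2 (0.203), and in edgeR (0.198).

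Cd24a (ENSMUSG00000047139, chromosome 10, 43578284 to 43584265, plus strand), a lipid-anchored surface glycoprotein, held 2634, 2625, 1885 and 1192 normalized counts in controls, with KO values of 4462, 2823 and 3092. Control 4 was the lowest and KO 1 the highest, and the groups did not overlap. KO exceeded control by 0.73 on the log2 scale (SE 0.26, DESeq2 adjusted p 0.0975), and passed without control 2 (0.0328). The near copies Gm15352 and Gm6212 held 3.18% as many counts as Cd24a, so its counts are uncertain by sharing of reads.

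Muc1 (ENSMUSG00000042784, chromosome 3, 89229057 to 89233381, plus strand), a membrane mucin of apical surfaces, held 88.5, 118, 122 and 162 normalized counts in controls, with KO values of 149, 161 and 124. Control 4 was the highest of the 7 libraries. The log2 fold change was 0.23 (SE 0.32, DESeq2 adjusted p 0.983), with a 95% interval from -0.38 to 0.85.

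Cftr (ENSMUSG00000041301, chromosome 6, 18170687 to 18322768, plus strand), the anion channel of duct cells, had the lowest level per kilobase of exon of the 10 genes. Controls held 12, 32, 2 and 26 raw counts, of which the 2 counts of control 3 are under the floor of 3 counts. KO values were 62, 70 and 83. After scaling, the controls ran from 2.61 to 37.7 and the KO libraries from 60.6 to 72.3 normalized counts, with no overlap. The difference on the log2 scale was 1.83 (SE 0.73, DESeq2 adjusted p 0.182), the largest of the 10 genes. Without control 2 it was 2.44 and passed (adjusted p 0.0301).

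Sox9 (ENSMUSG00000000567, chromosome 11, 112782224 to 112787760, plus strand), the transcription factor of duct and progenitor cells, held 250, 586, 94.1 and 139 normalized counts in controls. KO values were 862, 1039 and 682. Every KO library was above every control, and the controls spread with a coefficient of variation of 83.3%, against 20.8% in KO libraries. Sox9 had a log2 fold change of 1.69 (SE 0.67, DESeq2 adjusted p 0.186), so the gene did not pass. Without control 2, the highest control, it was 2.42 and passed (adjusted p 2.58e-10). Sox9 also passed without control 3 (adjusted p 0.0401).

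Spp1 (ENSMUSG00000029304, chromosome 5, 104435118 to 104441050, plus strand), which encodes osteopontin, held 647, 670, 664 and 695 normalized counts in controls. KO values were 1041, 1344 and 776. The controls were nearly alike, with a coefficient of variation of 3.00%, and the KO libraries spread by 26.9%, all above the controls. Means were 669 ± 20.1 (SD, n = 4) and 1054 ± 284 (SD, n = 3). Spp1 rose by 0.65 on the log2 scale (SE 0.20, DESeq2 adjusted p 0.0275). The call held without control 4 (0.0152) and without the unnumbered KO library (0.000365), and was lost without any of the other 5 libraries (adjusted p from 0.0698 to 0.311) and in edgeR (0.146).

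**Figure D2:**
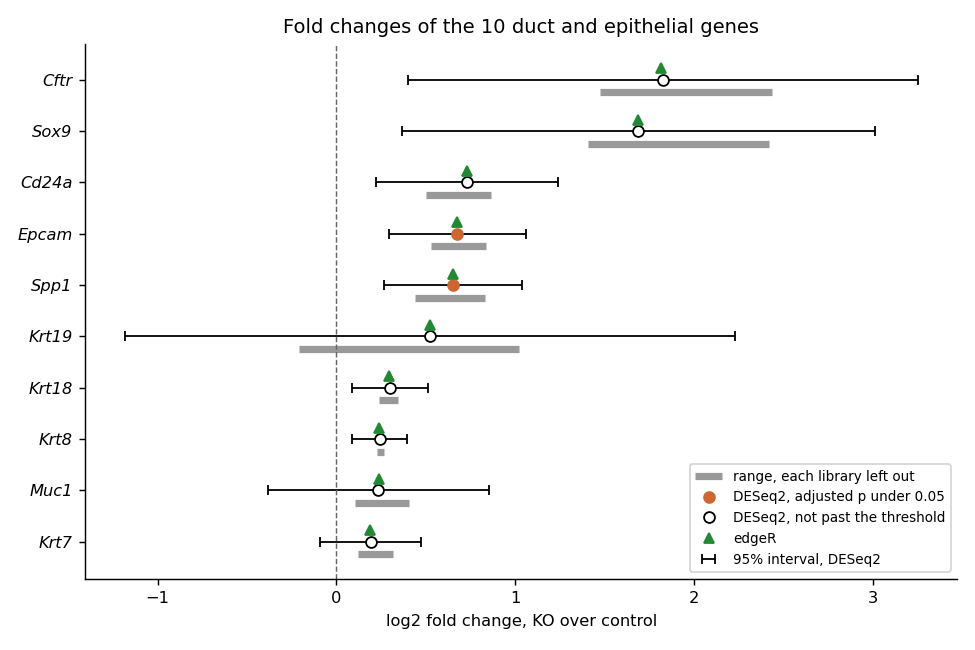
Log2 fold change of KO over control (horizontal axis) for each gene, from DESeq2 with its 95% interval (circles and black lines) and from edgeR (green triangles), with grey bars for the range over the fits that each left out 1 library. Epcam and Spp1, filled, passed the DESeq2 threshold, Cftr and Sox9 had the largest values with wide intervals, and Krt19 alone had a grey bar that crosses 0.

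Libraries were not high or low in the same way for all genes. Control 2 was the highest control for 6 of the 10 genes. Among KO libraries, KO 2 was the highest for 6 genes and the unnumbered library the lowest for 6. Scaling to library totals in place of the DESeq2 size factors moved the median log2 fold change of all genes from 0.01 to 0.11, and under it 6 of the 10 genes were called, all higher. Calls over all genes leaned the same way under this scaling, with 695 higher (3.99% of 17431 genes tested) and 298 lower (1.71%), against 386 and 383 with the size factors. All 10 kept a log2 fold change above 0 under both scalings.

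Levels can be compared between genes only per length, so normalized counts were divided by the kilobases of exon in GENCODE M21. In controls Krt8 was the highest of the 10 genes at 6212 ± 252 per kilobase (SD, n = 4), which placed it 146th of 19719 genes tested. Krt18 followed at 4734 ± 449 and Epcam at 4125 ± 874, and these 2 overlapped. Krt7 stood at 1253 ± 230, Cd24a at 808 ± 268 and Spp1 at 406 ± 12.2 per kilobase. No control value of these 3 genes overlapped that of the next gene in the order. The exon length is the union of all annotated exons, 7049 bases in Krt7 against 1437 in Krt18. Krt7 held more normalized counts than Krt18 in controls (means 8836 and 6802), so its place below Krt18 depends on this length. Which of the annotated exons were expressed was not tested. Sox9 at 64.6 ± 53.8 and Muc1 at 52.2 ± 12.9 overlapped. Krt19 stood at 12.6 ± 7.97 and Cftr at 2.34 ± 1.89 per kilobase, placed 16730th and 19358th.

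In KO libraries the order was the same except that Epcam, at 6588 ± 1443 per kilobase (SD, n = 3), came before Krt18, at 5820 ± 209, with overlapping libraries. Krt8 was again the highest at 7345 ± 40.6, overlapping Epcam. Sox9, at 208 ± 43.2, no longer overlapped Muc1, at 61.7 ± 7.94. The simple epithelial keratins and Epcam were thus abundant in both groups, while the duct genes Krt19 and Cftr were near the bottom of the genes tested. In bulk samples, fewer cells of a type and less RNA per cell cannot be told apart.

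**Figure D3:**
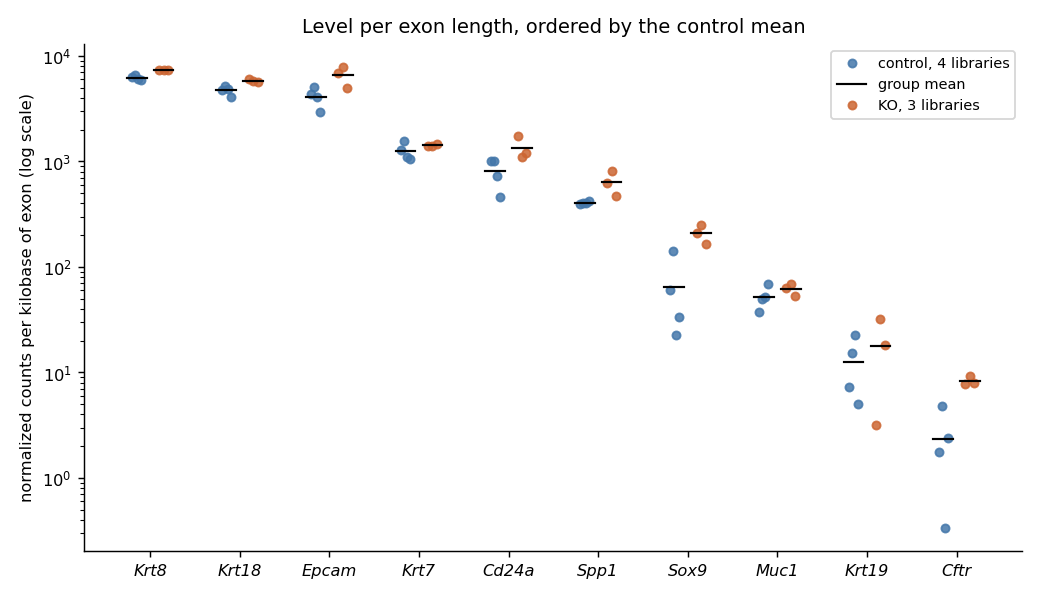
Normalized counts per kilobase of exon (log scale) for each gene in control (blue) and KO (orange) libraries, with black lines at the group means and genes ordered by the control mean. Krt8, Krt18 and Epcam lie between 2951 and 7860 per kilobase in all libraries, and Krt19 and Cftr lie at or below 32.3.

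The other keratins set the frame for these levels. Of 28 further keratin genes, 5 received an adjusted p-value and 0 were called in DESeq2 or in edgeR, with 1 at an unadjusted p under 0.05 in each. No read was found in any library for 9 of them (Krt5, Krt6a, Krt6b, Krt9, Krt12, Krt14, Krt16, Krt24 and Krt76), and 17 stayed under 3 counts in every library. The 3 with the highest mean normalized count over all 7 libraries were Krt222 (log2 fold change 0.13, adjusted p 0.999 in DESeq2), Krt1 (-0.27, 0.933) and Krt10 (-0.49, 0.611). Krt80, the keratin with the unadjusted p under 0.05, is named here after its values were seen: it averaged 103 ± 35.6 in controls and 189 ± 35.8 normalized counts in KO, with every KO library above every control (log2 fold change 0.87, DESeq2 adjusted p 0.207, edgeR 0.380). Krt222 averaged 423 ± 110 in controls and 460 ± 41.4 normalized counts in KO.

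Among 14 other intermediate filament genes, 2 rose and 0 fell in DESeq2, against 1.96% and 1.94% of all genes tested. The same shares stand beside the DESeq2 calls of each list below. The median log2 fold change of the filament list was 0.01. Nefm, a neurofilament subunit, held 4673, 8538, 5283 and 4780 normalized counts in controls, with KO values of 12603, 18703 and 10401, all of these above the controls. Its log2 fold change was 1.26 (SE 0.24, DESeq2 adjusted p 1.68e-05 and 0.0588 in edgeR), and DESeq2 called it in each of the 7 leave-one-out fits, which drop 1 library at a time. Sync, which encodes the filament-linking protein syncoilin, rose by 0.98 (SE 0.27, DESeq2 adjusted p 0.0133, edgeR 0.135), and was called in 4 of the 7. Opposite-strand exons cover 19.2% of the exon length of Nefm and 27.3% of that of Sync. The strand setting of the counts is not given, so reads of the opposite genes may be included. The lamin genes Lmna (0.14, adjusted p 0.933) and Lmnb2 (0.12, 0.974) did not pass.

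Of 22 other genes used for duct cells, 18 received an adjusted p-value, 2 rose and 0 fell in DESeq2, and the median was 0.32. Ambp, a secreted plasma protein precursor, rose by 0.82 on the log2 scale (adjusted p 0.000161), with means of 1489 ± 311 (SD, n = 4) and 2636 ± 26.2 (SD, n = 3). Tspan8, a tetraspanin, rose by 0.66 (adjusted p 0.00218), with means of 2304 ± 460 and 3652 ± 32.8. Both were called in each of the 7 leave-one-out fits, and neither passed in edgeR (0.0526 and 0.0775). Mmp7 had no count in any library, and the carbonic anhydrase gene Car2 had from 0 to 5.78 normalized counts. The 3 genes of this list with the highest normalized counts were Pkd1 (0.15, adjusted p 0.963), Clu (0.49, 0.242) and Glis3 (0.10, 0.993). Without control 4, 4 genes of the list were called higher in place of 2, against 2.62% of all genes tested and 1.96% with it. Without the 2 deepest libraries 4 were also called higher. The share over all genes in that fit is not given here, so a general rise in calls cannot be told apart.

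Of 36 epithelial adhesion and junction genes, 4 rose and 1 fell in DESeq2 among 35 with an adjusted p-value, with a median of 0.08. Dsp (desmoplakin, which anchors keratin filaments to desmosomes) rose by 0.95 (SE 0.20, adjusted p 0.000191) and Dsc2 (desmocollin, a desmosome cadherin) by 1.00 (SE 0.23, adjusted p 0.000933). Dsp averaged 7994 ± 2217 (SD, n = 4) normalized counts in controls against 15392 ± 2418 (SD, n = 3). Marveld2, a tight junction gene, rose by 0.59 (adjusted p 0.0067). Cldn4, a claudin of tight junctions, fell by 0.83 on the log2 scale (SE 0.18, adjusted p 0.000349), from 2221 ± 347 to 1251 ± 252 normalized counts.

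Dsp, Dsc2 and Cldn4 were called in each of the 7 leave-one-out fits. Marveld2 passed in 3 of them. In edgeR 0 genes of this list were called and 13 had an unadjusted p under 0.05, with adjusted p-values from 0.0588 to 0.0877 for these 4. The 3 genes of the list with the highest normalized counts were Plec (-0.17, adjusted p 0.664), Spint2 (0.59, 0.0774) and Cdh1 (0.47, 0.0712), which encodes E-cadherin. Without the 2 deepest libraries 6 genes were called higher in place of 4, again with no share over all genes to set beside it.

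Receptors of osteopontin were listed beside Spp1. Of 10, 7 received an adjusted p-value, 1 rose and 0 fell in DESeq2. Cd44, which encodes a surface receptor for osteopontin and hyaluronan, held 1196, 1076, 709 and 586 normalized counts in controls, with KO values of 2016, 1411 and 1507. Every KO library was above every control, with a log2 fold change of 0.88 (SE 0.25, DESeq2 adjusted p 0.017 and 0.183 in edgeR). It was called in 5 of the 7 leave-one-out fits. The integrin genes Itgb1 (0.20, adjusted p 0.816) and Itgav (-0.24, 0.513) did not pass. Of 11 genes listed for proteins that act with the Cftr channel, Stx1a (syntaxin 1A) rose by 0.37 (DESeq2 adjusted p 0.0461, edgeR 0.151). It missed the threshold without independent filtering (0.0793) and was called in 1 of the 7 leave-one-out fits. Slc4a2 and Ezr, which are among the most abundant of them, had log2 fold changes of -0.05 and 0.06, each with an adjusted p of 0.9996.

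**Figure D4:**
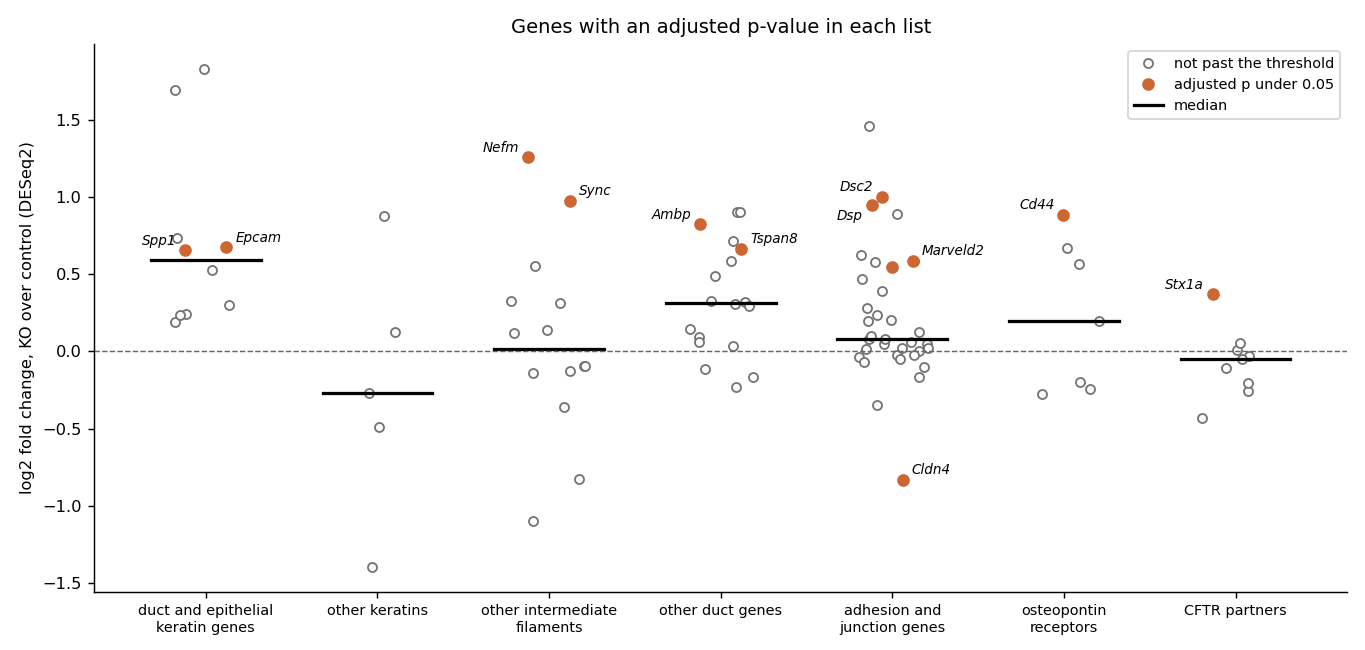
Log2 fold change of KO over control in DESeq2 (vertical axis) for each gene with an adjusted p-value in 7 gene lists, with filled points for genes past the threshold, labelled where the text names them, and black lines at the list medians. Cldn4 is the only filled point below 0, and the median of the duct and epithelial keratin genes stands at 0.59.

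Genes with the most similar pattern were sought over the 6 libraries other than control 4, which earlier results of these data set apart, by Pearson's r of log2(normalized count + 1), among 14570 genes with a mean of at least 50 normalized counts. The nearest to Krt8 were Tmem221 (r = 0.999), Plcb4 (0.996), Dop1b (0.996), Mad1l1 (0.994) and Myo5b (0.993). The nearest to Spp1 were Prdx4 (0.995), Proc (0.993), Bex1 (0.991) and Scd2 (0.989). These r values are the highest of many over 6 libraries and describe the pattern only.

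Markers of other cells that the sort could hold were summed per library, as CPM, counts scaled to the library total. The 10 duct and epithelial genes together held from 645 to 808 in controls and from 998 to 1018 in KO libraries. The library totals that these sums are divided by include Gcg. Beta cell markers ran from 7056 to 12492 in controls and from 11587 to 18615 in KO libraries, and 2 of 10 (Iapp and Npy) were called higher. Npy was uneven among controls, with 132, 1833, 358 and 191 normalized counts, and had KO values of 5400, 6328 and 5047. Delta cell markers ran from 3765 to 6959 and from 6434 to 11783, with 2 of 6 (Rbp4 and Ffar4) called higher. These calls are from DESeq2, and edgeR called 0 genes of either list, with 6 beta and 2 delta markers at an unadjusted p under 0.05. Median log2 fold changes were 0.39 for the beta and 0.64 for the delta list, beside 0.59 for the 10 duct and epithelial genes. KO 1 was the highest library for both sums. Among KO libraries KO 1 was the highest for 3 of the 10 duct and epithelial genes, KO 2 for 6 and the unnumbered library for 1. The part of beta and delta cells in the member genes' values was not tested.

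Acinar markers ran from 32.3 to 294 CPM in controls and from 78.9 to 213 in KO libraries, with 1 of 15 called higher (Bhlha15) and Amy2a5 at 0 in all libraries. The acinar list had 0 genes called lower, and its median log2 fold change was -0.51, opposite in sign to that of Bhlha15 (0.82). The highest acinar sum was that of control 3, which was the highest control for Krt19 and the lowest for Sox9 and Cftr. Endothelial markers ran from 7.72 to 12.1 and from 7.58 to 21.8, with 0 of 8 called in DESeq2 or edgeR, and 1 and 0 at an unadjusted p under 0.05. Their median log2 fold change was 0.70. Leukocyte markers ran from 18.8 to 26.7 and from 15.7 to 18.5, with C1qa called lower in DESeq2 among 10. C1qa held most of this sum, with means of 976 ± 225 (SD, n = 4) and 553 ± 124 (SD, n = 3) normalized counts, and the median log2 fold change of the list was 0.52. Mesenchymal markers ran from 25.5 to 67.0 and from 48.2 to 76.7, and Schwann cell markers from 12.6 to 19.9 and from 14.2 to 18.9. Of these 9 and 6 genes, 0 were called in DESeq2 or edgeR, and 0 and 1 had an unadjusted p under 0.05 in each tool. Median log2 fold changes were 0.39 for the mesenchymal and -0.15 for the Schwann cell list. The part of these cells in the member genes' values was not tested.

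**Figure D5:**
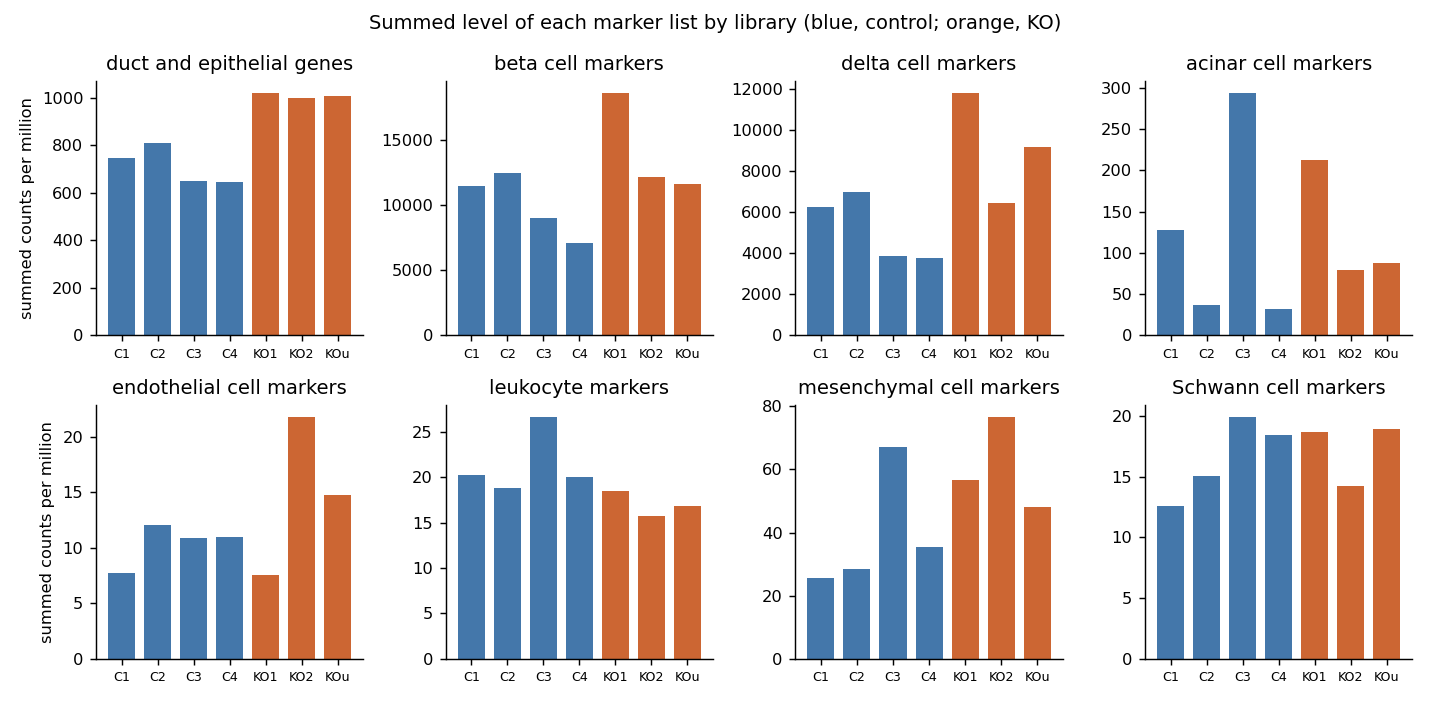
Summed CPM (vertical axes, from 0, each panel with its own scale) of each marker list in the 4 control (blue) and 3 KO (orange) libraries. The sum of the duct and epithelial genes is between 998 and 1018 in all 3 KO libraries and at most 808 in controls, while the acinar sum is highest in control 3 at 294.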

How the data were processed

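RNA of sorted cells was prepared with a Takara SMARTer stranded total RNA kit, per the labels' protocols. The deposited values are raw counts per gene, made by the authors with FastQC, STAR and featureCounts on mm10, per the submitters' processing notes. The strand setting, the counting of read pairs and the versions are not given in the sources used here. Of the counts from 1 to 10, between 84.4% and 88.9% were even numbers in each library. A count may therefore stand for less than 1 independent fragment, also for low genes and the floor of 3 counts, and this was not tested.

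Counts of 4 control and 3 KO libraries were compared with DESeq2 1.42.0 (Wald test, Benjamini-Hochberg adjustment over all genes, threshold 0.05, default independent filtering), which the series' design text names. The alternative was edgeR 4.0.16 (quasi-likelihood test, TMM). Both ran in R 4.3.3 and were tested on simulated counts. Other alternatives changed scaling, filters, libraries and a replicate block. Exon lengths came from GENCODE M21. The members and lists were chosen with earlier results of these data known. Text names every member, Nkx2-2, Gcg, each list's called genes, the 3 most abundant genes of 6 lists, and the 5 genes most like Krt8 and Spp1. For the alpha cell list the called genes are given as a count. Some genes that this rule names are not reported here, and they stay in the counts of their lists.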

Additional observations from a re-analysis of the deposited data

Results flagged for a closer look

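Among the genes tested for an outlying control, 1 control value lay far from the others. Nefm had 8538 normalized counts in control 2, against 4673 to 5283 in the other 3 controls, a gap of 0.842 of the controls' whole range, above Dixon's critical value for 4 samples. The 3 KO libraries, from 10401 to 18703, were all above it. Among 37 genes tested in this way, chance flags about 1.85.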

How the results depend on the processing

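DESeq2 called 769 genes and 2 of the 10 duct and epithelial genes. With edgeR the counts were 203 and 0, and with library total scaling 993 genes (695 higher, 298 lower) and 6 of the 10 were called. Leaving out 1 library at a time gave 430 to 891 genes and 0 to 4 of the 10. The log2 fold change of Krt19 was -0.21 without KO 2, and the other 9 genes stayed above 0 under all alternatives run.

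Numbers 1 and 2 occur in the titles and the columns of both groups, and these libraries share only a number. The column of the unnumbered KO library bears number 4, as that of control 4 does, but no KO title has this number. The deviations of KO 1 and control 1 correlated at 0.23 and those of KO 2 and control 2 at 0.30, but KO 2 correlated at 0.41 with control 3. The unnumbered KO library and control 4, the 2 deepest libraries, correlated at 0.48, the highest of all pairs. Whether libraries of the same number belong together was not tested. The replicate block was built on numbers 1 and 2 only. It put control 3, control 4 and the unnumbered KO library together in 1 block, so it does not pair the unnumbered library with control 4. With the replicate block DESeq2 called 834 genes and 2 of the 10 (Epcam, and Sox9 with an adjusted p of 1.27e-05 in place of Spp1 at 0.0735). With the replicate block edgeR called 163 genes and 0 of the 10.

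Some log2 fold changes changed sign, among them that of Krt19, which was 0.52 (SE 0.87) in the main fit. Leaving out 1 library at a time moved Krt19 from -0.21 to 1.02, Slc4a2 from -0.112 to 0.0443, Ezr from -0.0233 to 0.144 and Pkd1 from -0.0322 to 0.284. Glis3 stood at -0.00427 without the 2 deepest libraries and Slc4a2 at 0.0545 with library total scaling. The cause was not tested. Krt19 and Cftr had 2 to 83 counts a library, and counting error was not separated from the spread between libraries.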
